A study of Homo sapiens with 3 samples.

Results

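Circular RNAs (circRNAs) that 3 human pancreatic cell lines had in common were examined. They were selected on detection: a back-splice junction entered when its name, made of the chromosome and both ends on the hg19 build, stood in the list of every line. Of 17156 distinct circRNAs in the 3 lists, 659 met this rule. Junctions on the mitochondrial chromosome, on the unplaced scaffold gl000220 and at a noncoding RNA locus on chromosome 14 were to be left out, and none of the 659 lay there. The lines were HPDE, non-tumour cells of the pancreatic duct epithelium, and PANC-1 and SW1990, both labelled as pancreatic ductal adenocarcinoma (PDAC). The protocols in the labels give a serum-free keratinocyte medium for HPDE, supplied with EGF and an extract of bovine pituitary, and DMEM plus FBS for the tumour lines, so line, tumour status and medium cannot be told apart. No line carried a labelled genetic change or drug treatment, total RNA was taken with TRIzol, and the study asked which circRNAs differ in PDAC. Each line had 1 library and no replicate. All comparisons are therefore between 3 libraries, with 95% intervals that cover counting error only, and no test between conditions was possible.

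A circRNA forms when the splicing machinery joins the end of an exon backwards to the start of the same or an upstream exon, which leaves a closed loop without a cap or a poly(A) tail. Such loops lack the free ends that exonucleases attack, and many are known to outlast the linear transcript of their host gene. Inverted repeats in the introns on either side of the loop, and RNA-binding proteins that bind there, are known to bring the ends together. Reads across the back-splice junction are the usual measure of a circRNA, since all other bases of the loop are shared with the linear transcript.

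The junctions on which the results turn are shown first, as the 25 last bases of the closing exon in lower case followed by the 25 first bases of the opening exon in capitals, 5′ to 3′ on the transcript. The exons were found from the junction span and the host gene, and the bases are those of the matched GENCODE release 29 transcripts, not of the sequenced reads. RTN4 and FOXK2 are shown for circRNAs highest in PANC-1, LMNB2 for one lowest in PANC-1, EIF4B and HNRNPUL1 for circRNAs highest in SW1990, TRIO for one lowest in SW1990, AARS for one highest in HPDE, P4HB for one lowest in HPDE, and MYH9 and WBSCR22 for circRNAs at a like level in all 3 lines.
RTN4 exons 4 to 5, chr2:55209651-55214834, minus strand: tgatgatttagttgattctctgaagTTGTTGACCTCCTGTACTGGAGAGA
FOXK2 exons 2 to 3, chr17:80521230-80526077, plus strand: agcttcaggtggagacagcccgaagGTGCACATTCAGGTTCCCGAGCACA
LMNB2 exons 3 to 4, chr19:2438161-2438529, minus strand: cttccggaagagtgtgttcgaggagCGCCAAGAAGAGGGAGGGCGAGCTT
EIF4B exons 7 to 8, chr12:53421566-53421972, plus strand: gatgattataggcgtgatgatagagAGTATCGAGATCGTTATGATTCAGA
HNRNPUL1 exon 8, chr19:41798150-41798416, plus strand: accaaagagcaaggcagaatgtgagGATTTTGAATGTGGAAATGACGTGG
TRIO exons 9 to 11, chr5:14316622-14336836, plus strand: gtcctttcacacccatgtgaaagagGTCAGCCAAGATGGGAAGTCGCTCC
AARS exons 12 to 13, chr16:70294947-70296427, minus strand: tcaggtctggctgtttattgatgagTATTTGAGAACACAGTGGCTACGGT
P4HB exons 3 to 4, chr17:79813018-79813462, minus strand: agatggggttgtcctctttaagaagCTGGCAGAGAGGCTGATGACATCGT
MYH9 exons 11 to 12, chr22:36712562-36714370, minus strand: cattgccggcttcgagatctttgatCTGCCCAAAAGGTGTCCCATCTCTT
WBSCR22 exons 3 to 5, chr7:73100966-73101425, plus strand: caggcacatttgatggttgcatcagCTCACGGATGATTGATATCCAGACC
In each line the letters before the change of case are an exon end that ordinary splicing would join to the next exon downstream, and the capitals are an exon start that ordinary splicing would join to the exon before.

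CRIM1, which encodes a transmembrane protein with cysteine-rich repeats that bind bone morphogenetic proteins, gave 3 of the shared circRNAs, and they show how junctions of a host combine the same exon ends. The first and the second loop share the opening bases of exon 2, and the first and the third share the closing bases of exon 4.
CRIM1 exons 2 to 4, chr2:36623757-36669878, plus strand: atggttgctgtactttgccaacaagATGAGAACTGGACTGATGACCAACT
CRIM1 exons 2 to 5, chr2:36623757-36691798, plus strand: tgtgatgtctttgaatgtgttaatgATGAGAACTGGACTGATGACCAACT
CRIM1 exons 3 to 4, chr2:36668401-36669878, plus strand: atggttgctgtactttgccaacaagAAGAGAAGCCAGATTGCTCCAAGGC
The 2-to-4 loop had 0.312 RPM (junction reads scaled by the authors to library size) in HPDE, 1.88 RPM in PANC-1 and 0.353 RPM in SW1990. The 3-to-4 loop had 0.264, 3.90 and 0.582 RPM in the same order of lines. Both were highest in PANC-1. The 2-to-5 loop had 0.0719, 0.382 and 0.602 RPM and was highest in SW1990, 1.58-fold above PANC-1 with a 95% interval of 0.807 to 3.23 that holds 1.

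The shared loop with the shortest genomic span is shown whole, from the first base of the exon to the last, since its 180 bases are exon 11 of PRKCSH, the gene of the beta subunit of glucosidase II, an enzyme that trims sugars on new glycoproteins in the endoplasmic reticulum.
PRKCSH exon 11, chr19:11558254-11558433, plus strand: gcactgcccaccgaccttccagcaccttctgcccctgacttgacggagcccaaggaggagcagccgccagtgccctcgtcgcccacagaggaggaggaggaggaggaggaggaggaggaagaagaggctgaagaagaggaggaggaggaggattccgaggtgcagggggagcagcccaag
This circRNA had 3.88 RPM in HPDE, 11.2 RPM in PANC-1 and 6.98 RPM in SW1990, and was among the 12 most abundant of the 659.

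The shared circRNAs were a small share of each list and were, in the middle of the distribution, the better-covered junctions of it. They made up 19.8% of the 3331 HPDE junctions outside the left-out loci, 5.11% of the 12886 PANC-1 junctions and 17.8% of the 3700 SW1990 junctions. They held 15.3, 8.71 and 18.7% of the back-splice reads there. A shared circRNA had a median of 19 reads in HPDE, of 22 in PANC-1 and of 17 in SW1990, and the other junctions of these lists had medians of 12, 6 and 9. Presence in 3 lists itself favours well-covered junctions, so this is a description of the rule. The most abundant junctions of a line were mostly not shared: among the 100 most abundant there were 15 of the 659 in HPDE, 12 of them in PANC-1 and 24 of them in SW1990. The library totals that the RPM imply were 41.7 M, 36.7 M and 48.1 M reads, so 1 read was worth 0.0240, 0.0273 and 0.0208 RPM.

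The rule needs 1 read in each list. Of the 659, 48 had a single read in at least 1 line, 446 had at least 5 reads in every line and 180 had at least 20 in every line. Outside it, 780 junctions were listed in HPDE and PANC-1 only, 218 in HPDE and SW1990 only, and 995 in PANC-1 and SW1990 only. Of these, 344 had at least 20 reads in both their lines and 40 had at least 100. Of the junctions with at least 100 reads in both HPDE and SW1990, 43 of 50 (86.0%, Clopper-Pearson interval 73.3 to 94.2%) were also in the PANC-1 list. The shares were 33 of 46 (71.7%, 56.5 to 84.0%) for PANC-1 and SW1990 junctions found in HPDE, and 27 of 47 (57.4%, 42.2 to 71.7%) for PANC-1 and HPDE junctions found in SW1990. Some junctions well covered in 2 lines were thus not in the list of the other line.

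Host genes were read from the SW1990 table, which is the only one that names them. It named 650 of the 659, left 6 without a symbol and had turned the symbols of 3 into dates. The 650 came from 557 hosts, of which 479 gave 1 shared circRNA, 67 gave 2 and 11 gave 3 or more. MAD1L1, a spindle checkpoint gene, gave 6 and ABCC1, a drug efflux transporter gene, gave 4. In SW1990 the shared circRNA was the only listed junction of its host in 264 cases. Where the host had others, the shared circRNA held over 50% of the host's back-splice reads in 146 of 386 cases. The tables hold junctions only, so the labelled cell type could be looked at only through hosts. Of 56 epithelial and basement-membrane adhesion genes, 25 hosted a circRNA in SW1990, and 3 gave shared ones, LLGL2, LAMA5 and DLG1. Of the lists of immune, endothelial, acinar and islet, and neural genes, none hosted an SW1990 circRNA, and of the fibroblast and stellate genes 1 did, with no shared circRNA. Of 37 mesenchymal and extracellular matrix genes, 9 hosted an SW1990 circRNA and 2 gave shared ones. Of the SW1990 circRNAs from these genes, 4 of 18 (22.2%) were shared, and 3 of the 4 were loops of MYOF alone. From the epithelial list 3 of 47 (6.38%) were, beside 17.8% of the whole SW1990 list. Both shares rest on very few hosts, and the lists were not tested against each other.

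The shared junctions fell on exon ends of their hosts. Because no hg19 genome was used here, each span was compared with the distances from an exon start to the same or a later exon end in transcripts of the host in GENCODE release 29. Of 647 shared circRNAs whose host was annotated, 599 (92.6%, interval 90.3 to 94.5%) matched such an exon pair exactly. Spans shifted by 1 to 5 bases matched in 0.309 to 2.47% of cases, as the plot of matches by shift shows. Of the junctions listed in SW1990 only, 77.7% (75.7 to 79.7%) matched, and of those shared by SW1990 and 1 other line 89.8% (HPDE) and 90.1% (PANC-1). Whether the junction caller used annotated exon ends is not given in the sources used here.

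**Figure D1:**
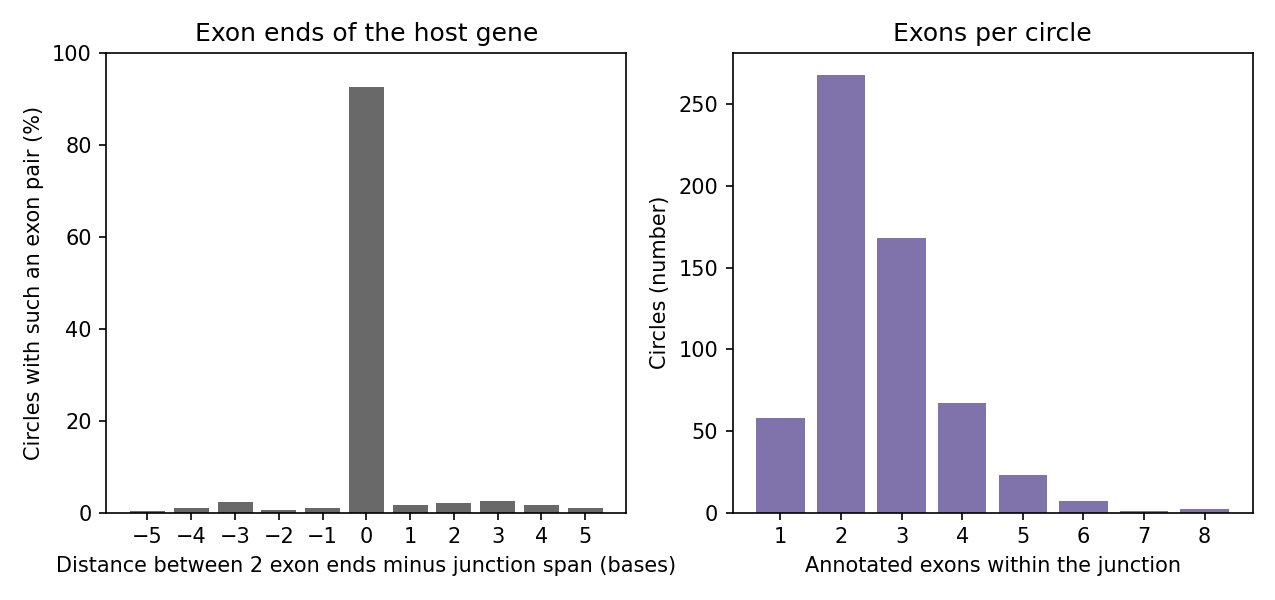
Left, share of the 647 shared circRNAs with an annotated host (%) for which an exon start and an exon end of the host lie exactly the junction span apart (0) or miss it by 1 to 5 bases. Right, number of annotated exons in the 594 circRNAs that matched 1 exon pair, with 2 exons the most frequent count at 268.

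Most loops were short and made of a few internal coding exons. Of 594 circRNAs that matched a single exon pair, 58 (9.76%) held 1 exon, 268 (45.1%) held 2, 168 held 3, 97 held 4 to 6 and 3 held more, up to 8. With introns removed the loops had a median length of 341 bases, from 159 to 946, although the genomic span had a median of 2869 bases and ran from 180 to 93596. The longest span belonged to GPHN, the gene of the scaffold protein gephyrin, whose 5 exons 9 to 13 had 0.144 RPM in HPDE, 0.327 RPM in PANC-1 and 0.166 RPM in SW1990. It was followed by circRNAs of MIPOL1 (84307 bases), ADK (83913), RNF13 (75217) and RERE (73473). No loop took in the last exon and 1 began at the first, which have no splice site on their outer side. Exon 2 opened 177 loops (29.8%). It opened 25.9% of the matched junctions shared by PANC-1 and SW1990 only, 22.8% of those shared by HPDE and SW1990 only and 17.2% of those listed in SW1990 only. The annotated coding sequence covered 518 loops (87.2%) throughout and 66 (11.1%) held the start codon. Of the 518, 185 (35.7%) had a length that is a multiple of 3, as needed for a reading frame to run on around a loop. This share was 40.1% for junctions shared by PANC-1 and SW1990 only, 41.1% for HPDE and SW1990 only and 37.2% for SW1990 only. In the whole SW1990 list, 46.2% of the matched loops held 2 exons and 89.0% were coding throughout, near the values of the shared ones.

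Introns next to the shared loops were long. The median intron was 6898 bases upstream and 5856.5 bases downstream, whereas the median intron of the hosts had 2279 bases. The upstream intron was longer than its host's median intron in 466 of 593 circRNAs (78.6%), and the downstream one in 493 of 594 (83.0%). Other junctions lay next to long introns too. Junctions shared by PANC-1 and SW1990 only had medians of 7161 and 5747 bases, with 77.5 and 78.2% over the host's median. Junctions shared by HPDE and SW1990 only had medians of 4923 and 3676 bases, with 75.7 and 72.5%, and those listed in SW1990 only had 4007 and 3492 bases, with 69.9 and 70.4%. The last 2 exon bases before the junction were AG in 55.7% of loops, and they were AG in 57.7% of the 9433 internal exons of the same transcripts. Exon starts began with G in 44.4 and 48.0%, so the exon letters at the junction were close to those of other internal exons.

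Among the most abundant circRNAs, the order of the lines differed from host to host, as the plot of the highest by geometric mean shows. The circRNA of HMGA1, which encodes an architectural chromatin protein, had 26.0 RPM in HPDE, 12.1 RPM in PANC-1 and 65.5 RPM in SW1990. That of IFI6, an interferon-induced gene, had 166 RPM in HPDE, 2.54 RPM in PANC-1 and 47.2 RPM in SW1990, the highest single value of the 659. HMGA1 was thus highest in SW1990 and IFI6 in HPDE, and both were lowest in PANC-1. PSMA7, a proteasome subunit gene, had 24.2, 3.95 and 8.08 RPM in HPDE, PANC-1 and SW1990, and was again lowest in PANC-1. RTN4, which encodes a reticulon that shapes the endoplasmic reticulum, had 1.99 RPM in HPDE, 34.8 RPM in PANC-1 and 5.88 RPM in SW1990. Its PANC-1 value was 17.5 times that of HPDE and 5.92 times that of SW1990 (5.20 to 6.76). The ephrin receptor genes EPHA2 and EPHB4 gave circRNAs of 13.1, 7.42 and 6.71 RPM and of 9.66, 8.15 and 4.34 RPM, with less distance between lines. The highest value in PANC-1, 47.9 RPM against 16.5 in HPDE and 18.5 in SW1990, belonged to a junction at chr17:75398141-75398785 whose host symbol had become a date and is not used here.

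**Figure D2:**
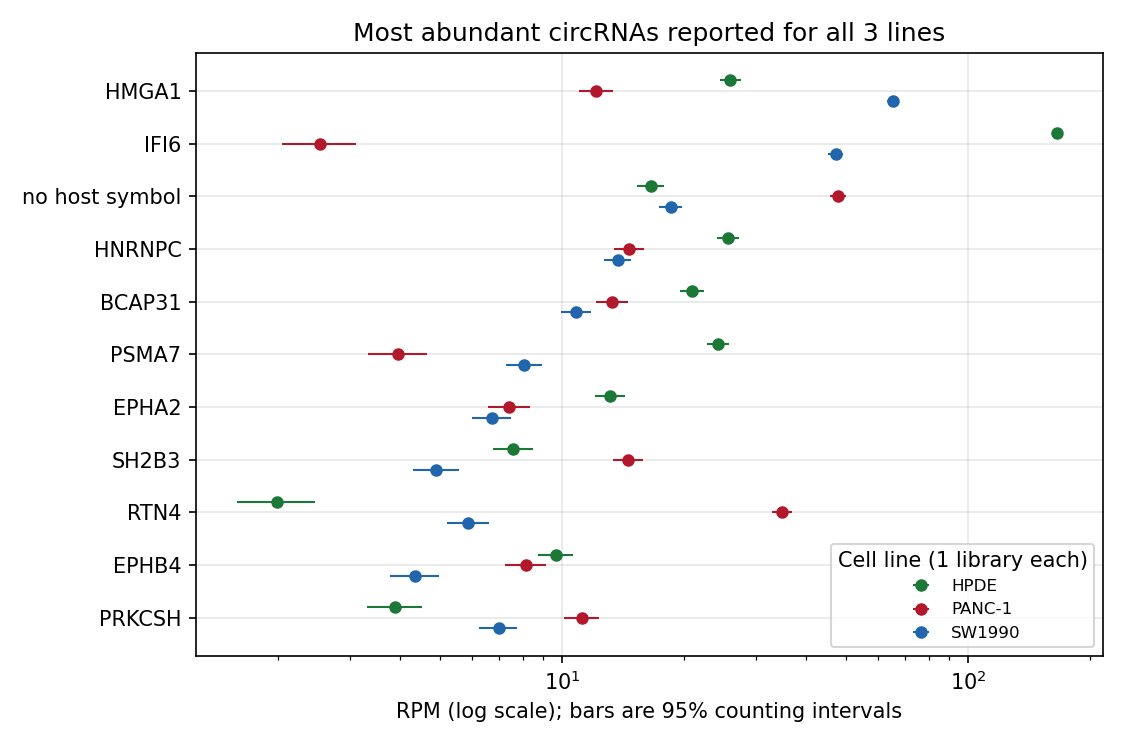
RPM (log scale) of 11 of the 12 shared circRNAs with the highest geometric mean, by host gene, with 1 point per line and 95% Poisson intervals for counting error. IFI6 runs from 2.54 RPM in PANC-1 to 166 in HPDE, and RTN4 from 1.99 in HPDE to 34.8 in PANC-1.

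Being present in all 3 lines did not go with an even level. The highest of the 3 RPM values was a median of 4.29 times the lowest. It was less than 2 times the lowest in 105 circRNAs (15.9%) and over 10 times in 127 (19.3%). Among the 180 with at least 20 reads in every line, the median was 2.80, with 54 (30.0%) under 2 times and 5 over 10 times. Counting error is smaller there, but the filter also removes the smallest divisors of this ratio. A lower ratio is thus in part set by the filter itself. PANC-1 held the highest value in 323 of the 659, HPDE in 191 and SW1990 in 145. That order rests on the RPM scale: under 4 other scalings of the libraries PANC-1 was highest in 159 to 271, and SW1990 led in number when scaled by listed reads (237) or by reads outside the left-out loci (298).

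**Figure D3:**
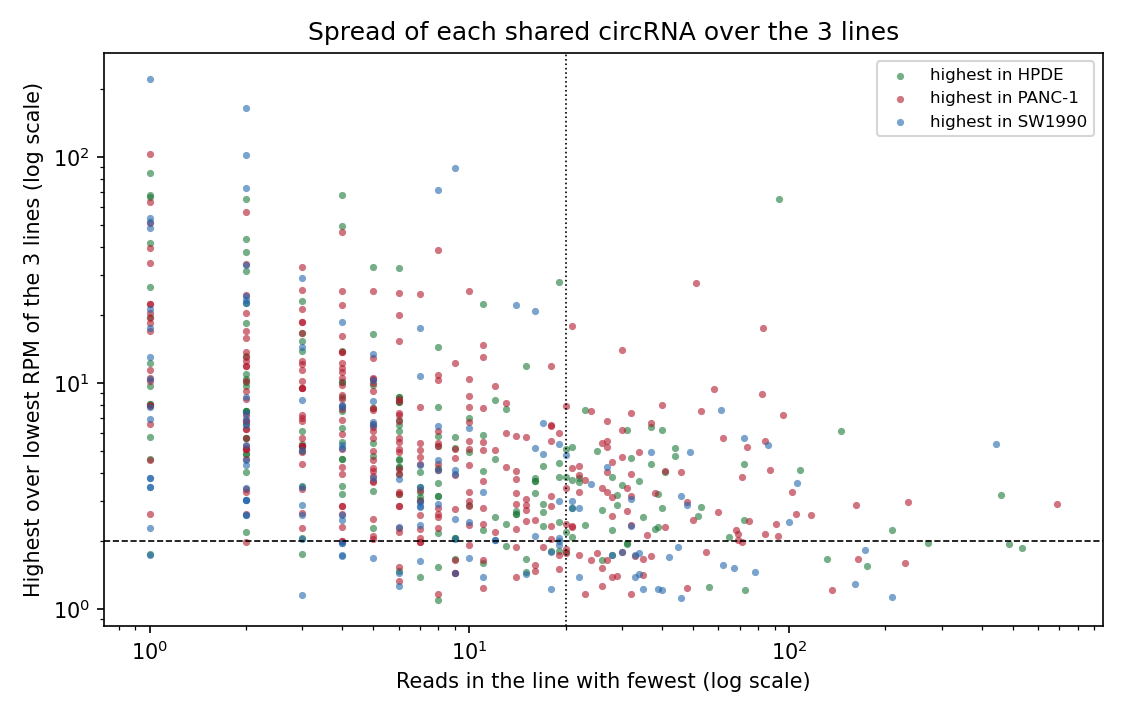
Highest over lowest RPM of the 3 lines (log scale) against the reads in the line with fewest (log scale), 1 point per shared circRNA, coloured by the line with the highest RPM. The dashed line marks 2-fold and the dotted line 20 reads, and the 180 circRNAs from 20 reads on have a median of 2.80. The fewest reads also enter the lowest RPM, so the 2 axes are not independent.

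A few well-covered circRNAs had nearly the same RPM in all 3 lines. MYH9, the gene of a non-muscle myosin heavy chain, gave 5.20 RPM in HPDE, 5.70 RPM in PANC-1 and 5.88 RPM in SW1990. WBSCR22, the gene of a ribosomal RNA methyltransferase, gave 3.60, 3.71 and 3.05 RPM. NDUFS1, a subunit gene of mitochondrial complex I, gave 1.25, 1.25 and 1.39 RPM. In these 3 the intervals of all 3 ratios held 1 on the RPM scale. The other 7 of the 10 evenest were circRNAs of SF3B3 (the one that opens at exon 19), SMURF1, UTP18, ATXN7, LIMK1, UCK2 and FAM192A, with highest over lowest values of up to 1.24. The choice took the smallest ratios, so their evenness is what chose them. Other scalings shift PANC-1 against SW1990 by up to 1.37 on the log2 scale, which takes SW1990 over PANC-1 past 2-fold in all 10. Under RPM and all 4 other scalings together, 30 circRNAs stayed within 2-fold in all 3 pairs of lines, among them those of DYNC1H1 (0.839, 1.39 and 0.997 RPM), the dynein heavy chain gene, and SNX5 (1.25, 1.23 and 0.644 RPM), a sorting nexin gene.

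On the RPM scale, PANC-1 stood apart from both other lines in the most circRNAs. At a ratio of at least 2 against both other lines, 176 shared circRNAs were high in PANC-1, 91 in HPDE and 36 in SW1990, and 75, 115 and 113 were low in PANC-1, HPDE and SW1990. With the whole interval past 2-fold against both, the high counts were 74, 33 and 18 and the low counts 26, 16 and 23. The lead of PANC-1 depended on the scaling. Under all 5 scalings together, SW1990 lay below PANC-1 by the set ratio in 104 of 612 with enough reads. Any circRNA high in PANC-1 against both lines under all 5 is among these 104. By that stricter call HPDE, not PANC-1, stood apart in the most circRNAs for high values and with both directions counted, but not for low values. The margins were small. Every other scaling lowers PANC-1 over HPDE, by a log2 shift of up to -0.77, and raises SW1990 over PANC-1, by up to 1.37. The stricter call thus asks a larger RPM ratio of circRNAs high in PANC-1 than of those high in HPDE. Which line leads under it is partly set by the rule.

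Among the circRNAs high in PANC-1, several had values far above both other lines. The circRNA of ZNF609, a zinc-finger gene whose circRNA is widely known, had 1.85 RPM in HPDE, 29.3 RPM in PANC-1 and 1.06 RPM in SW1990. It was 15.9-fold above HPDE (12.6 to 20.3) and 27.7-fold above SW1990 (20.9 to 37.4). FOXK2, a forkhead factor gene, gave 0.504 RPM in HPDE and 1.02 RPM in SW1990, and its 330 reads in PANC-1 put it 17.9-fold above HPDE (11.5 to 29.3) and 8.84-fold above SW1990 (6.53 to 12.2). ZKSCAN1, another zinc-finger gene, gave 2.30, 16.6 and 2.74 RPM. In each of these PANC-1 was the high line and the others lay within or near 2-fold of each other. ZNF292 (0.168, 4.15 and 0.187 RPM for the loop of exons 2 to 4), CCDC40, a cilia gene (0.264, 5.32 and 0.208 RPM), and BRF1, a subunit gene of an RNA polymerase III factor (0.144, 2.65 and 0.104 RPM), had the same pattern. RNF13, a membrane ubiquitin ligase gene, had 0.0240, 2.48 and 0.0831 RPM for its shorter loop, where HPDE had 1 read and the ratio to PANC-1 of 103 had an interval of 18.1 to 4132. Exon 2 of IGF1R, the insulin-like growth factor receptor gene, gave 0.576, 6.46 and 0.166 RPM, while its loop of exons 3 to 5 gave 0.624, 0.573 and 0.0831 RPM and was not high in PANC-1.

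Other circRNAs were far lower in PANC-1 than in both other lines. That of LMNB2, a nuclear lamin gene, had 14.1 RPM in HPDE, 0.218 RPM in PANC-1 and 15.5 RPM in SW1990, and lay 64.4-fold under HPDE in PANC-1 (32.5 to 149.9). HPDE and SW1990 lay within 2-fold of each other and PANC-1 lay far under both. PVRL2, the gene of the adhesion molecule nectin-2, had 3.74, 0.0273 and 6.04 RPM, with 1 read in PANC-1 and a wide interval of 24.3 to 5453 for the fold against HPDE. VASP, an actin regulator gene, had 5.97, 0.382 and 8.48 RPM for one loop and 3.96, 2.73 and 6.63 RPM for the other. The large difference in PANC-1 was thus in 1 of the 2 VASP loops.

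SW1990 was set apart by fewer circRNAs. That of EIF4B, a translation initiation factor gene, had 0.0480 RPM in HPDE, 0.218 RPM in PANC-1 and 7.94 RPM in SW1990, and was 36.4-fold above PANC-1 (18.3 to 84.9). PLCD3, a phospholipase C gene, had 1.46, 1.94 and 11.1 RPM, and CTBP1, a transcriptional corepressor gene, had 0.0480, 0.355 and 3.49 RPM. KDM1A, a histone demethylase gene, had 0.0719, 0.382 and 2.10 RPM. All 4 were highest in SW1990 with intervals that do not reach 1 against either other line. In the other direction, TRIO, a guanine nucleotide exchange factor gene, had 2.18, 3.11 and 0.125 RPM, and HTT, the huntingtin gene, had 1.70, 1.83 and 0.208 RPM. Both AURKA loops, from a mitotic kinase gene, had 0.0415 RPM in SW1990 against 0.456 and 1.80 RPM in HPDE, and are set against HPDE only here. That SW1990 value stands on few reads, as 1 read was worth 0.0208 RPM. GMIP, a GTPase-activating protein gene, had 0.719, 1.31 and 0.0208 RPM, with 1 read in SW1990.

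HPDE was set apart in both directions. AARS, the alanyl-tRNA synthetase gene, gave 2 circRNAs of 5.66, 0.191 and 0.0831 RPM and of 1.58, 0.0545 and 0.0415 RPM. The first lay 29.6-fold under HPDE in PANC-1 (14.2 to 74.5), and in SW1990 it lay 68.1-fold under it (26.3 to 252), and the second 38.1-fold in SW1990 (10.1 to 321). Both were thus high in HPDE alone. DDX21, an RNA helicase gene, gave 4.87, 0.409 and 0.582 RPM, EXOC7, an exocyst gene, 3.41, 0.191 and 0.104 RPM, and PRMT5, an arginine methyltransferase gene, 1.44, 0.109 and 0.104 RPM. Low in HPDE and near equal in both PDAC lines was P4HB, the protein disulfide isomerase gene, at 0.384, 7.66 and 7.98 RPM, a 20.8-fold higher value in SW1990 (12.6 to 36.7). SLCO3A1, an organic anion transporter gene, gave 0.0719, 1.53 and 0.769 RPM, PPFIA1, a liprin gene, 0.0480, 0.845 and 1.16 RPM, and MBOAT2, an acyltransferase gene, 0.144, 2.21 and 1.12 RPM. These were higher than HPDE in both PDAC lines by at least 2-fold under all 5 scalings, as were 67 of the 659 in all, and 64 were lower in both. The counts in the 2 directions are close, and both rest on the same HPDE library. Only circRNAs in all 3 lists have both ratios, so no wider set stands beside these counts. The HPDE values of SLCO3A1 and PPFIA1 stand on few reads, as 1 read was worth 0.0240 RPM.

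For PANC-1 against HPDE, 615 of the 659 had at least 10 reads over both libraries. Of these, 244 had a PANC-1 value of at least 2 times that of HPDE (39.7%; 35.3% of all 1269 circRNAs listed in both lines) and 153 were at least 2-fold lower (24.9%; 28.4%). The median log2 ratio was 0.48, and it was -0.02 for the 654 circRNAs in these 2 lists only. The median changes sign with the scaling, from -0.29 to 0.48. Under all 5 scalings, 152 of the 615 were higher and 153 lower, where 21.9 and 28.4% of the 1269 listed in both were. With the whole interval past 2-fold, 118 of the 615 (19.2%) were higher and 70 (11.4%) lower, where 15.8 and 14.2% of the 1269 were. For SW1990 against HPDE, 126 of 590 were higher (21.4%; 21% of all 777 listed in both) and 184 lower (31.2%; 32.2%), with a median log2 ratio of -0.21 (-0.21 to 0.39 by scaling). Under all scalings, 126 of the 590 were higher and 114 lower, where 21 and 20.6% of the 777 were, and by the interval 41 (6.95%) and 81 (13.7%) of the 590, where 6.56 and 13.8% of the 777 were. For SW1990 against PANC-1, 105 of 612 were higher (17.2%; 20.9% of all 1439 listed in both) and 261 lower (42.6%; 39.4%), with a median of -0.70 (-0.70 to 0.67 by scaling). Under all scalings, 105 of the 612 were higher and 104 lower, where 20.9 and 16.7% of the 1439 were, and by the interval 52 (8.5%) and 137 (22.4%) of the 612, where 8.27 and 18.7% of the 1439 were. The shared circRNAs are part of all those listed in both lines, so each share is partly compared with itself. Among circRNAs in the 2 compared lists only, 31.2% of 654 were higher and 31.8% lower in PANC-1 than in HPDE. These were 19.8 and 35.3% of 187 for SW1990 against HPDE, and 23.7 and 37% of 827 for SW1990 against PANC-1. Beside these, the shared set held a larger share higher and a smaller share lower in PANC-1 than in HPDE. The difference between the sets was not tested. The 3 comparisons share libraries pairwise, so they are not independent of each other.

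**Figure D4:**
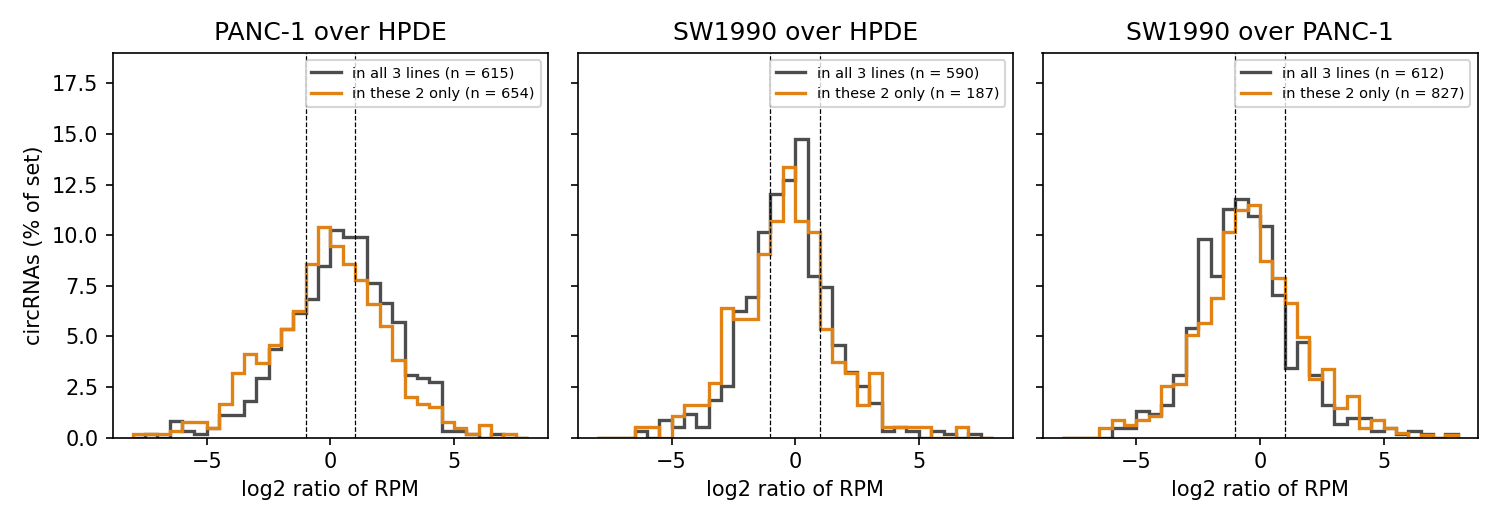
Distribution of log2 RPM ratios (% of each set per bin of 0.5) for circRNAs in all 3 lines and for those in the 2 compared lines only, with at least 10 reads over both libraries. Dashed lines mark 2-fold; in PANC-1 over HPDE the shared set has a median of 0.48 and the other set one of -0.02.

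An exact conditional binomial test on the reads, which compares 2 libraries and not conditions, was run over all circRNAs as an alternative. It needed a 2-fold ratio and a p, adjusted by Benjamini-Hochberg, of less than 0.05. For PANC-1 against HPDE it called 221 of the 615 shared circRNAs up (35.9%) and 143 down (23.3%), where it called 30.8 and 25.7% of the 1269 listed in both. For SW1990 against HPDE it called 99 (16.8%) up and 163 (27.6%) down of 590, where it called 16.3 and 28.3% of the 777. For SW1990 against PANC-1 it called 87 (14.2%) and 242 (39.5%) of 612, where it called 15.8 and 35.7% of the 1439. Across the 659, levels in the libraries had Spearman correlations of 0.419 for PANC-1 and HPDE, 0.593 for SW1990 and HPDE and 0.493 for SW1990 and PANC-1, given as a description over circRNAs that share host genes and libraries.

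The ratio of PANC-1 to the other lines differed with the length of the introns around the loop. The shared circRNAs were split into 4 classes of nearly equal size by the shorter of their 2 flanking introns. From the class with introns of 67 to 1657 bases to that of 10039 to 90075 bases, the median log2 ratio of PANC-1 over HPDE was -0.17, -0.16, 0.67 and 1.27. In the class with the longest introns, PANC-1 reached 2 times HPDE in 82 of 143 and was as far under it in 13, and in that with the shortest 34 of 143 were higher and 51 lower. SW1990 over HPDE had medians of -0.23, -0.21, -0.33 and -0.21 and showed no such order. SW1990 over PANC-1 had -0.19, -0.24, -0.82 and -1.33. Scaling moves all 4 classes of a comparison by the same amount, so the distance between classes does not depend on it. Examples with long introns on both sides are MYO9B (2.47, 15.2 and 1.70 RPM), an unconventional myosin gene, CDYL (2.40, 11.3 and 1.20 RPM), a chromodomain gene, and CLASP1 (0.216, 2.54 and 0.208 RPM), a microtubule-binding gene, all highest in PANC-1. LMNB2, with 5872 and 2991 bases on either side, was low there. The classes overlapped: FOXK2, with 43046 bases upstream but 3522 downstream, was high in PANC-1, and PRKCSH, with introns of 278 and 74 bases, was higher there than in HPDE.

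**Figure D5:**
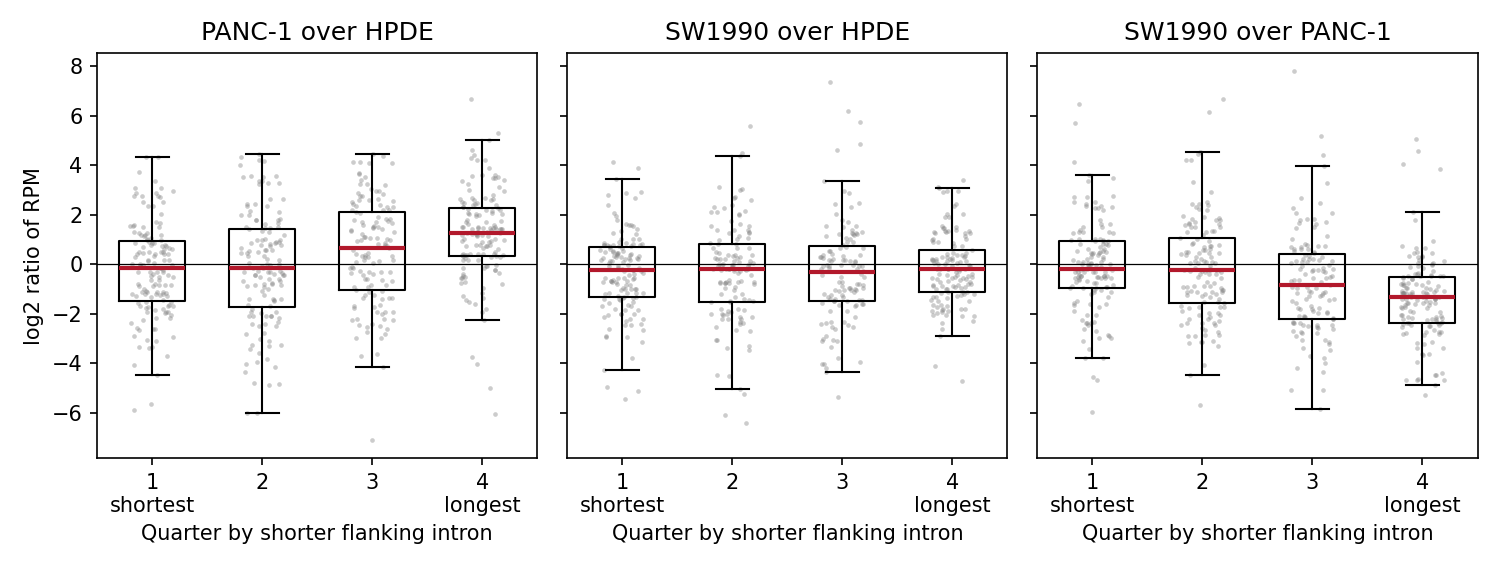
Log2 ratio of RPM for the shared circRNAs with at least 10 reads over both libraries, by the shorter of the 2 flanking introns in 4 classes from shortest to longest; points are circRNAs, boxes span the middle of each class with its median in red, and whiskers reach the last point within 1.5 box lengths. The median of PANC-1 over HPDE goes from -0.17 to 1.27, and that of SW1990 over HPDE stays between -0.33 and -0.21.

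Other features of the loops moved with the same ratio. By GC content of the loop, from the lowest to the highest class, the median log2 of PANC-1 over HPDE was 1.19, 0.39, 0.23 and -0.09. It was 0.89 for loops of 1 exon, 0.36 for 2, 0.19 for 3 and 1.22 for 4 or more, with no steady order, and 0.89 for those that open at exon 2 against 0.19 for later ones. It was 0.91 for loops with the start codon against 0.38 for loops that are coding throughout, and 0.97 for the longest spliced class against 0.38 for the shortest. Over 4 span classes, from under 500 bases to 10000 bases or more, it was 0.38, 0.07, 0.48 and 1.19. Over 554 shared circRNAs the Spearman correlation of the ratio with the shorter flanking intron was 0.296, and over 555 it was -0.197 with GC content. For SW1990 over HPDE these were 0.015 and -0.017. In all, 7 features were looked at after the data had been seen, and how far they move together was not tested. Junctions in the PANC-1 list only had the longest median span (6741 bases, against 2887.5 in HPDE only and 2580 in SW1990 only), and for circRNAs in the PANC-1 and HPDE lists only, the ratio went from -0.48 under 500 bases to 0.10 from 10000 bases on.

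Many shared circRNAs had another listed junction at one of their ends, and whether such junctions compete was not tested. Another listed junction used the same start or end in 202 of 659 cases in HPDE (30.7%; 21.8% of the whole list), in 381 in PANC-1 (57.8%; 50% of the list) and in 219 in SW1990 (33.2%; 22.1% of the list). In 122 cases this held in all 3 lines. In 25 of these the shared circRNA held, in every line, over 50% of the pooled reads of all junctions at its start or its end. Of junctions listed in only 2 lines, 25.9 and 26.6% shared an end in HPDE, 54.7 and 54.8% in PANC-1 and 23.4 and 25.2% in SW1990. Shared ends went with few reads. In HPDE 68.7% of the shared circRNAs with 1 to 4 reads had one, and 7.35% of those with 100 or more. These shares were 82.9 and 37.3% in PANC-1 and 71.3 and 14.7% in SW1990. MAN1A2, a mannosidase gene, gave 3 shared loops that open at exon 2 and close at exon 4, 5 or 6. In HPDE they had 0.0719, 0.120 and 0.120 RPM, in PANC-1 0.655, 0.545 and 0.327 RPM, and in SW1990 0.0415, 0.145 and 0.0623 RPM. The loop that closes at exon 4 was the highest of the 3 in PANC-1 and the lowest in the other lines, where each loop had at most 7 reads.

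Circles of the same host often differed in their ratio between lines, which no scaling of libraries alters. For PANC-1 against HPDE, 65 hosts had at least 2 shared circRNAs with enough reads, and within 34 of them the ratios lay at least 4-fold apart. The same was so for 16 of 51 hosts in SW1990 against HPDE and 27 of 64 in SW1990 against PANC-1. These gaps lie between the highest and the lowest ratio of a host, with no interval for counting error. Circles of different hosts were not compared in this way, so the counts do not show whether circles of the same host are more or less alike than others. For PANC-1 against HPDE the median gap was 2.03 on the log2 scale. The ratios of all 615 shared circRNAs with enough reads had a standard deviation of 2.13 on that scale, so ratios lay widely apart in the shared set as a whole. In 11 hosts for PANC-1 and 4 for SW1990 against HPDE, one circle passed 2-fold upward and another downward under all 5 scalings. For SW1990 against PANC-1 this was so for 6 hosts on the RPM scale and for 0 under all 5. FAM53B was among the 11 hosts and among the 4. Its loop of exon 4 had 0.264 RPM in HPDE, 1.45 RPM in PANC-1 and 0.976 RPM in SW1990, 5.48-fold (2.83 to 11.6) and 3.70-fold (1.89 to 7.91) higher in the PDAC lines. Its loop of exons 2 to 3 had 1.03, 0.464 and 0.208 RPM, 2.22-fold (1.24 to 4.16) and 4.96-fold (2.46 to 11.1) lower there. The 2 loops of this host thus differed in opposite directions between HPDE and both PDAC lines.

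ABCC1 and MYOF, the latter the gene of a membrane repair protein, gave further sets. The ABCC1 loops of exons 11 to 12 and 18 to 19 had 0.863, 1.72 and 0.810 RPM and 0.336, 0.627 and 0.332 RPM, at nearly the same level in HPDE and SW1990. Its loops of exons 21 to 22 and 24 to 26 had 0.288, 0.0545 and 1.27 RPM and 0.264, 0.218 and 1.41 RPM, and both were highest in SW1990. In MYOF the loops of exons 36 to 37 (0.432, 1.23 and 1.04 RPM) and 18 to 20 (0.504, 1.42 and 1.52 RPM) were lowest in HPDE, while that of exons 6 to 7 (0.480, 0.0273 and 0.582 RPM) had 1 read in PANC-1.

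The shared circRNAs were also grouped by what their hosts do. The shares to read these counts against are those of all shared circRNAs, of which 39.7% were higher and 24.9% lower in PANC-1 over HPDE, 21.4 and 31.2% in SW1990 over HPDE, and 17.2 and 42.6% in SW1990 over PANC-1. No group was tested against the others. Of 38 shared circRNAs from hosts known for circRNAs in many tissues, 27 of 37 with enough reads reached 2 times the HPDE level in PANC-1 and 4 lay as far under it, with a median log2 ratio of 2.41 beside 0.48 for all shared ones. In SW1990 against HPDE, 10 of 35 were higher and 6 lower (median 0.29), and in SW1990 against PANC-1 none of 37 was higher and 24 were lower (median -2.12). Examples are SETD3, a histidine methyltransferase gene, at 1.77, 9.22 and 2.06 RPM, CAMSAP1, a microtubule minus-end gene, at 0.719, 4.45 and 1.35 RPM, and CREBBP, a histone acetyltransferase gene, at 0.959, 7.64 and 1.74 RPM. Exon 4 of CDYL, exon 2 of CREBBP and exons 2 to 3 of ZKSCAN1 are among these loops.

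Of 9 circRNAs of transcription factor hosts, 7 were higher in PANC-1 than in HPDE, and 1 was lower (median 2.03), and all 8 with enough reads were lower in SW1990 than in PANC-1 (median -3.04). NFIX, a nuclear factor gene, had 0.983, 4.01 and 1.04 RPM. The exception was STAT3, which transmits cytokine signals, at 0.863, 0.109 and 0.0623 RPM, highest in HPDE. Of 28 from chromatin regulators, 16 of 25 were higher in PANC-1 than in HPDE and 4 lower (median 1.72). KDM4C, a histone demethylase gene, was higher in both PDAC lines at 0.384, 1.91 and 1.97 RPM, and HDAC1, a histone deacetylase gene, was lower in both at 1.41, 0.164 and 0.291 RPM. UHRF1, which reads hemimethylated DNA, had 1.65, 1.34 and 6.59 RPM and was highest in SW1990.

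Hosts of the ubiquitin system gave 13 of 25 higher in PANC-1 than in HPDE, with 3 lower (median 1.14), and those of microtubules, centrosomes and mitosis 13 of 25 and 2 (median 1.19). FANCL, a ubiquitin ligase gene of DNA crosslink repair, had 1.49, 8.70 and 0.623 RPM. Hosts of translation factors and tRNA synthetases gave 8 circRNAs, of which 2 were higher in PANC-1 than in HPDE and 5 lower (median -2.07). FARSA, a phenylalanyl-tRNA synthetase gene, had 6.69, 1.96 and 11.2 RPM, and EIF3D, an initiation factor gene, had 6.21, 1.20 and 2.39 RPM, both lowest in PANC-1, while RARS, the arginyl-tRNA synthetase gene, was highest there at 0.144, 2.89 and 0.561 RPM. RNA-binding and splicing hosts gave 12 of 28 higher and 7 lower (median 0.47), signalling kinases and phosphatases 4 of 12 and 4 (median 0.51), and vesicle traffic hosts 5 of 17 and 6 (median -0.16). The RNA-binding and kinase counts lie near the shares of all shared circRNAs and are no result about these hosts. The group medians of PANC-1 over HPDE are lower by up to 0.77 under other scalings, as is that of all shared circRNAs. Those of SW1990 over HPDE are higher by up to 0.60 and those of SW1990 over PANC-1 by up to 1.37. The counts of the groups, given on the RPM scale, move with the scaling too. Flanking introns were not equalised between groups, and their part in these counts was not tested.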

How the data were processed

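Back-splice junction reads of 1 library per line were compared. Per the submitters' processing notes, TopHat2, TopHat and HTSeq were used with hg19; the circRNA caller is not given in the sources used here. Per the file headers, HPDE and PANC-1 values are in RPM, and the SW1990 table holds the count of reads, the RPM and a host symbol. Divided by the value of 1 read, all deposited RPM came out whole to within 0.05 reads, which gives back the reads. Ratios are of the authors' RPM; which reads their totals count is not given in the sources used here.

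CircRNAs were matched by identical coordinates and compared with at least 10 reads over both libraries, at a fold of at least 2. The 95% intervals are exact conditional binomial ones for ratios, Poisson ones for RPM and Clopper-Pearson ones for shares. The planned fold has no test; the exact conditional binomial test over all circRNAs is an alternative. Of all circRNAs tested, it called 4748 higher and 1366 lower of 6666 for PANC-1 against HPDE, 1507 and 1575 of 3512 for SW1990 against HPDE, and 1213 and 4740 of 6650 for SW1990 against PANC-1. The other scalings were total listed reads, total reads outside the left-out loci, median of ratios over the shared circRNAs and TMM (edgeR 4.0.16). Calculations used Python 3.11.15, scipy 1.17.1 and pandas 2.3.3. The call rule was tried on simulated reads with counting error only and a known library scale. There it recovered 97.4 to 97.5% of 4-fold changes and called 5.45 to 5.97% of unchanged circRNAs. The simulation held neither the open scaling nor variation between libraries, so it does not bear on these limits.

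Exons and junction bases come from GENCODE release 29 (GRCh38) by span within the host gene, with no conversion of coordinates; the transcript with the longest coding sequence was taken. The circRNAs and the lists of host genes were chosen with earlier results of these data known. The exon match, the classes of loop structure, the contrasts within hosts and the call under all 5 scalings were added after the data were seen. Named circRNAs are the 12 highest by geometric mean, the 10 evenest with at least 20 reads in every line, the 6 largest by the near interval bound per pair and direction, the 5 highest and 5 lowest per line, those of hosts with 3 or more, the 5 longest and 5 shortest, up to 4 per host list and the 5 with most shared ends. DYNC1H1, SNX5, FAM53B, STAT3, KDM4C, HDAC1, CLASP1 and the second loops of IGF1R and AURKA were picked with their values in view. Some circRNAs that this rule names are not reported here.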

Additional observations from a re-analysis of the deposited data

Results flagged for a closer look

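The circRNA of HNRNPUL1, the gene of a heterogeneous nuclear ribonucleoprotein, was the only shared circRNA whose intervals lay past 2-fold in opposite directions in PANC-1 and SW1990 against HPDE. It had 1.13 RPM in HPDE (47 reads), 0.0545 in PANC-1 (2 reads) and 5.59 in SW1990 (269 reads). The log2 ratio was -4.37 for PANC-1 and 2.31 for SW1990. Both ratios share the HPDE library, each line has 1 library, and the difference between the ratios was not tested.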

How the results depend on the processing

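With 1 library per line, no count below has a replicate check. No paired analysis was possible because each line has 1 library. Leaving out a replicate was not possible either.

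The median log2 ratio of PANC-1 over HPDE (0.48) was -0.13 when scaled by listed reads, -0.29 by reads outside the left-out loci, -0.017 by median of ratios, 0.21 by TMM and 0.28 with at least 20 reads in both libraries. That of SW1990 over HPDE (-0.21) was 0.15, 0.39, 0.014 and 0.025 under the 4 scalings. That of SW1990 over PANC-1 (-0.70) was 0.26, 0.67, 0.016 and -0.21, and -0.48 with 20 reads. The sign of a median is thus set by the scaling. The number higher in PANC-1 than in HPDE (244) was 152 by reads outside the loci and under all 5 scalings; the number lower in SW1990 than in HPDE (184) was 114 by the same. SW1990 against PANC-1 (105 higher, 261 lower) had 208 and 148, 259 and 104, and 172 and 170 under the scalings by listed reads, reads outside the loci and median of ratios, and 104 lower under all. With 20 reads in both libraries the counts higher and lower were 60 and 38, 20 and 55, and 22 and 75. With the interval past 2-fold they were 118 and 70, 41 and 81, and 52 and 137. The binomial test kept every count within 1.5 times.

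Of the 659, 180 had 20 reads in every line, and these had 54 within 2-fold and a median span of 1983 bases. Counting only other junctions of at least 5 reads left 124 circRNAs in HPDE and 137 in SW1990 with a shared end. Counting only hosts with other junctions, 146 in place of 410 held over 50% of the host's reads.

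Of 442 named ratios, 398 stayed on their side of 2-fold under TMM and 304 under reads outside the loci; ratios within 2-fold could change sign among these. Under the latter, 9 ratios of SW1990 over PANC-1 that were past 2-fold on the RPM scale turned positive on the log2 scale, those of FBXW4 (0.24), ARNTL2 (0.17), ABCC1 (0.29), ASPHD1 (0.36), AARS (0.17), KPNB1 (0.26), AKT2 (0.086), DLG1 (0.051) and SNX25 (0.20). Other ratios, within 2-fold on the RPM scale, turned positive as well. This scaling adds 1.37 to every log2 ratio of SW1990 over PANC-1, which gives each of these sign changes.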
